A study of Mus musculus with 19 samples.

Results

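Interferon-stimulated genes were followed in messenger RNA of mouse cerebral microvessels. The set is a list of 31 gene symbols with known roles in the interferon response. All 31 were found among the 39179 genes in the deposited tables, of which 37607 have a name and 27448 had at least 1 count. None of the 31 was at 0 in any library.

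Cerebral microvessels are the fine vessels of brain tissue, and their endothelium makes up the blood-brain barrier. The 19 libraries come from male C57BL/6 mice, bought at 7 weeks of age, and fall into 5 groups by treatment. Room air was given to 2 sets, titled Room-air (4 libraries) and air (4), and the exposed groups breathed vapour of an electronic cigarette without nicotine (Nic-free, 4), vapour with nicotine (Nic, 3) or smoke (4). The Room-air set served as control for both vapour groups and the air set for smoke, on the strength of the titles alone. The labels give no dose, no duration of exposure, no age at collection, and no statement on pooling of mice.

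Interferons are secreted proteins that cells release on sensing virus or misplaced nucleic acid. Type I interferon binds the receptor made of Ifnar1 and Ifnar2, the kinases Jak1 and Tyk2 phosphorylate Stat2, and a complex that holds Stat2 and Irf9 binds the interferon-stimulated response element (ISRE). Interferon gamma acts through Ifngr1, Ifngr2, Jak1 and Jak2 on genes that carry the gamma-activated site (GAS). Brain endothelial cells carry both kinds of receptor, and type I interferon is known to tighten their junctions.

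The letters of both elements were looked up in RefSeq promoter windows (GRCm38.p6, 250 bases before to 50 after each start), which were found for 24 of the 31 genes. Usp18, Iigp1, Rtp4, Dhx58, Mx1, Parp14 and Ifi27l2a had no entry. The ISRE core (GAAA, any 2 bases, GAAA), on either strand, stood in the windows of 15 of the 24 (62.5%), against 3.99% of the 27025 genes with a window. A longer form, the core followed by any base and T, stood in 13 (54.2%) against 0.958%. The GAS letters TTCNNNGAA stood in 7 (29.2%) against 9.55%. A match of letters is a description and does not show that a factor binds there.

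The stretches below show how the element is arranged in genes taken up further on, with up to 20 bases on each side of the matches. None of the stretches is carried past the base before the RefSeq start, where the Oas1a stretch ends. They were picked after the expression values had been seen. Each is printed 5′ to 3′ on the strand of its gene, with the matched letters in capitals. Capitals that begin with TTTC are matches read on the other strand.
Ifit1, chr19:34640765-34640833, plus strand: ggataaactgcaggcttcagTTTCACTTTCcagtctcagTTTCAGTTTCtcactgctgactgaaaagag
Rsad2, chr12:26456543-26456592, minus strand: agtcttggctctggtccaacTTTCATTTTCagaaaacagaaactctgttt
Oas1a, chr5:120907526-120907565, minus strand: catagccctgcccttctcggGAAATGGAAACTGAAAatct
Isg15, chr4:156200855-156200916, minus strand: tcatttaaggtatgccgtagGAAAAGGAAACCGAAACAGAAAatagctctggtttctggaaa
Gbp2, chr3:142620584-142620633, plus strand: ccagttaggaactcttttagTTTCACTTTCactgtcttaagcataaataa
Ifit3, chr19:34583353-34583436, plus strand: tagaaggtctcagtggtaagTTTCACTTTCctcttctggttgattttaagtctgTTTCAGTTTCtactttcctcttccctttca
Ifit3b, chr19:34607749-34607832, plus strand: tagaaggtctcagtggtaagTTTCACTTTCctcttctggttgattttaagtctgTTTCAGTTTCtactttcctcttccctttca
Irf1, chr11:53769904-53769952, plus strand: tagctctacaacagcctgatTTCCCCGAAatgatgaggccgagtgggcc

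Ifit1 carries 2 separate cores, whereas in Oas1a 2 cores and in Isg15 3 cores run into each other. The Ifit3 and Ifit3b stretches are letter for letter the same, and their windows share an identical run of 169 bases. Irf1 has no ISRE core in its window, and its capitals mark the GAS letters. Distances count bases from the RefSeq start, with the start base at 0, and this start can differ from the gene ends given below, which come from the GENCODE M21 annotation of GRCm38.

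**Figure D1:**
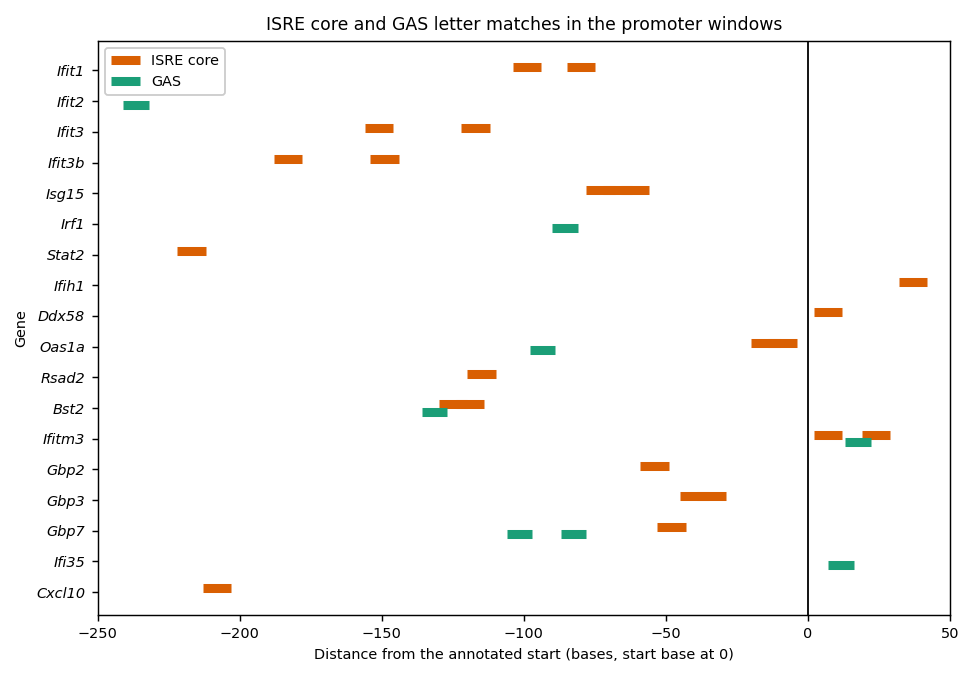
Matches to the ISRE core (orange) and to the GAS letters (green) along the promoter windows of the members that hold either, in bases from the annotated start. Most matches lie before the start, and those of Ifih1, Ddx58, Ifitm3 and Ifi35 lie after it.

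Depth, as the total of counted reads per library, in units of 1e6 reads, ran from 25.3 to 30.2 in Room-air, 15.2 to 19.1 in Nic-free, 21.8 to 28.4 in Nic, 9.8 to 13.5 in air and 7.9 to 12.6 in smoke. The share of reads that fell in no gene was 28.66 to 33.4% in Room-air, 38.86 to 45.16% in Nic-free, 33.01 to 38.4% in Nic, 33.55 to 37.51% in air and 28.91 to 33.25% in smoke. This share did not overlap in any of the comparisons of groups below except Nic against Room-air, and its part in the results was not tested. The labelled tissue was checked against marker lists, and none of the 16 endothelial markers was at 0 in all libraries. They took a mean of 0.308% of counts in Room-air, 0.243% in Nic-free, 0.42% in Nic, 0.189% in air and 0.274% in smoke. Oligodendrocyte, neuron, astrocyte, microglia and choroid plexus markers were present too, so the libraries hold more than vessels. Their mean shares, from the lowest to the highest group, were 1.15 to 2.64% for oligodendrocyte and 0.467 to 0.691% for neuron markers. They were 0.405 to 0.566% for astrocyte, 0.0717 to 0.0947% for microglia and 0.533 to 2.09% for choroid plexus and ependyma markers. Markers above 0 do not show how far vessels were enriched. In bulk RNA, fewer cells of a type and less RNA per cell cannot be told apart, which holds for every result here.

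Levels are given as CPM, the count of a gene per 1e6 counted reads of its library. Per kilobase of exon the genes lay far apart: the mean over 19 libraries was 101.3 CPM per kilobase for Ifitm3, 28.56 for Bst2, 13.72 for Isg15, 13.26 for Stat2 and 10.22 for Ifi35. At the low end stood Ifi44 with 0.672, Cxcl10 with 0.324 and Mx1 with 0.252. Cxcl10 rested on 4 to 31 reads per library and Mx1 on 3 to 38, so values of these genes are coarse. C57BL/6 mice carry a defective Mx1 allele. Of the interferons themselves, 11 ligand genes had at most 3 reads in any library, and Ifna1, Ifna4, Ifnl2 and Ifnl3 were at 0 in all 19, so no ligand could be tested. Receptor transcripts were plain, with means of 73.9 CPM for Ifnar1, 37.6 for Ifnar2, 30.9 for Ifngr1 and 26.8 for Ifngr2.

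A gene counts as past the threshold at an adjusted p under 0.05 (edgeR quasi-likelihood test, two-sided, Benjamini-Hochberg over all genes tested). In nicotine vapour against nicotine-free vapour, 9 of 31 members were higher and 0 lower, where 12.4% of all genes tested passed as higher and 24.8% in either direction. In nicotine-free vapour against Room-air, 1 was higher and 2 lower, where 11.3% of all genes were higher, 10.4% lower and 21.8% either. Between the unexposed sets, 7 were lower in air than in Room-air and 0 higher, where 12% of all genes were lower and 22.7% in either direction. No member passed in nicotine vapour against Room-air, where 3.89% of all genes did, and none of the 29 tested in smoke against air, where 1.6% did. In all, 12 members passed in at least 1 of these comparisons, and their values follow by role, library by library.

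**Figure D2:**
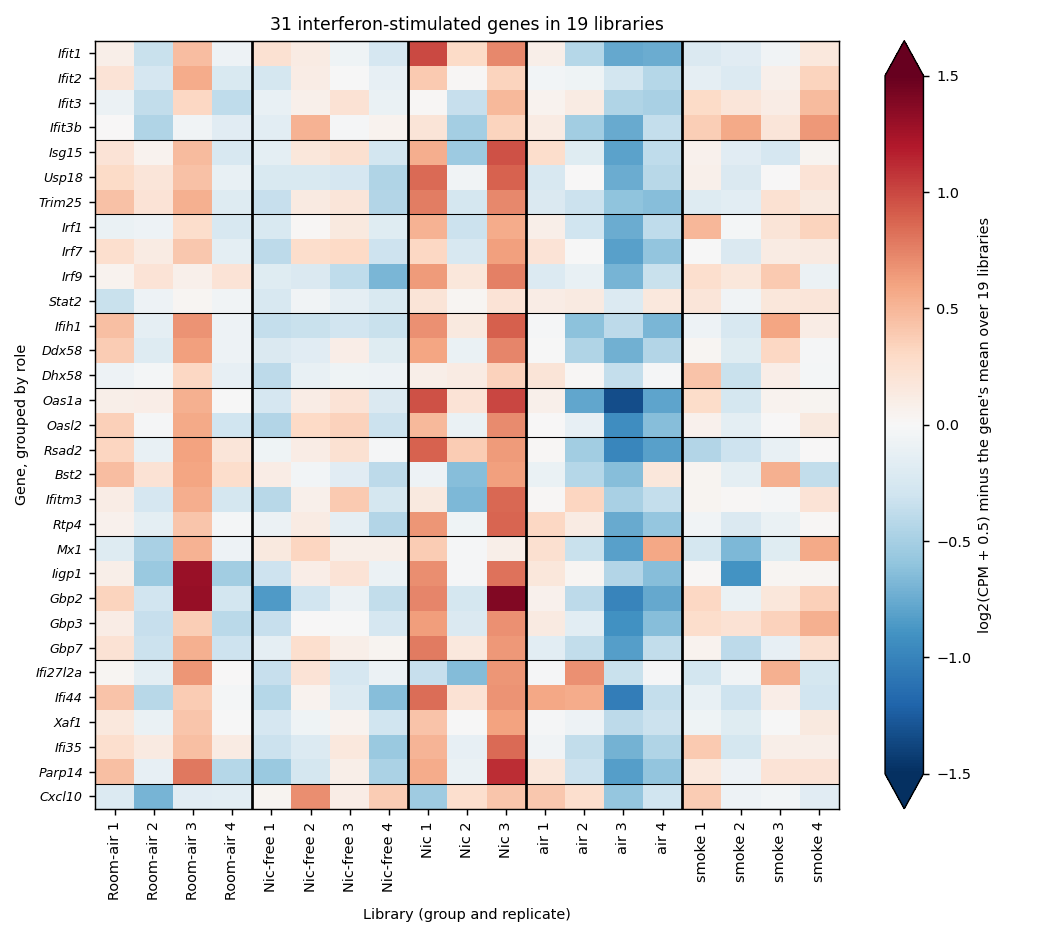
Heat map of the 31 genes (rows, grouped by role) in the 19 libraries (columns, by group). Colour is log2(CPM + 0.5) minus the mean of the gene over the 19 libraries. Nic 1, Nic 3 and Room-air 3 are red in most rows, and air 3 is blue in nearly all.

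Most members went up and down together among libraries of the same group, least clearly in smoke. Of the 31 genes, 30 lay above the group mean in Room-air 3, 29 in Nic-free 2, 30 in Nic 3, 30 in air 1 and 24 in smoke 4. Only 2 did in Room-air 2, 3 in Room-air 4, 4 in Nic-free 4, 5 in Nic-free 1, 1 in Nic 2, 1 in air 3 and 1 in smoke 2. Among all genes tested, 32.8 to 58.8% lay above the group mean in any library. The 32.8% was in smoke 2, where the median log2 deviation was −0.16 for the members and −0.11 for all genes. In smoke 1 and smoke 3, 18 and 19 members lay above the group mean, beside 55.6 and 58.3% of all genes. Over the 465 pairs of members, the Pearson r of deviations from the group means across 19 libraries had a median of 0.68 and a range of 0.02 to 0.97, while all pairs of the 16557 genes tested had a median of 0.02. Values from 1 library share its RNA and its depth, so this is a description with no test. Cxcl10 followed the others least, with a median r of 0.31, and Gbp3 and Xaf1 most, with 0.85 and 0.84.

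Summed over the 31 genes, Room-air libraries 1 to 4 held 600.1, 508.1, 757.4 and 497.4 CPM. Nic-free 1 to 4 held 450.4, 546.6, 565.3 and 444.3, and Nic 1 to 3 held 758.8, 494.2 and 891.4. The air libraries held 556.2, 509.4, 353.8 and 428.4, and the smoke libraries 593.5, 513.8, 609.4 and 611.9. Nic 2 thus sat within the range of Nic-free and below every Room-air library, far from the other Nic libraries. The summed CPM of the 16 endothelial markers was highest in the same library as the member sum in all 5 groups: Room-air 3, Nic-free 3, Nic 3, air 1 and smoke 4. It was 4970 and 5040 in Nic 1 and Nic 3 but 2590 in Nic 2, and 1320 in air 3, the lowest of all. Deviations of each member from its group means were also set against those of this endothelial sum, on the log2 scale. The Pearson r ran from 0.19 for Cxcl10 to 0.94 for Irf7. Next above Cxcl10 were Mx1 at 0.43, Bst2 and Dhx58 at 0.47, Ifi27l2a at 0.50 and Irf9 and Stat2 at 0.52. Ifih1 stood at 0.62, Iigp1 at 0.68 and Ifit3b at 0.69, and all other members at 0.70 or more. The r of all genes with this sum was not computed. The part of endothelial content in the member values was not tested.

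**Figure D3:**
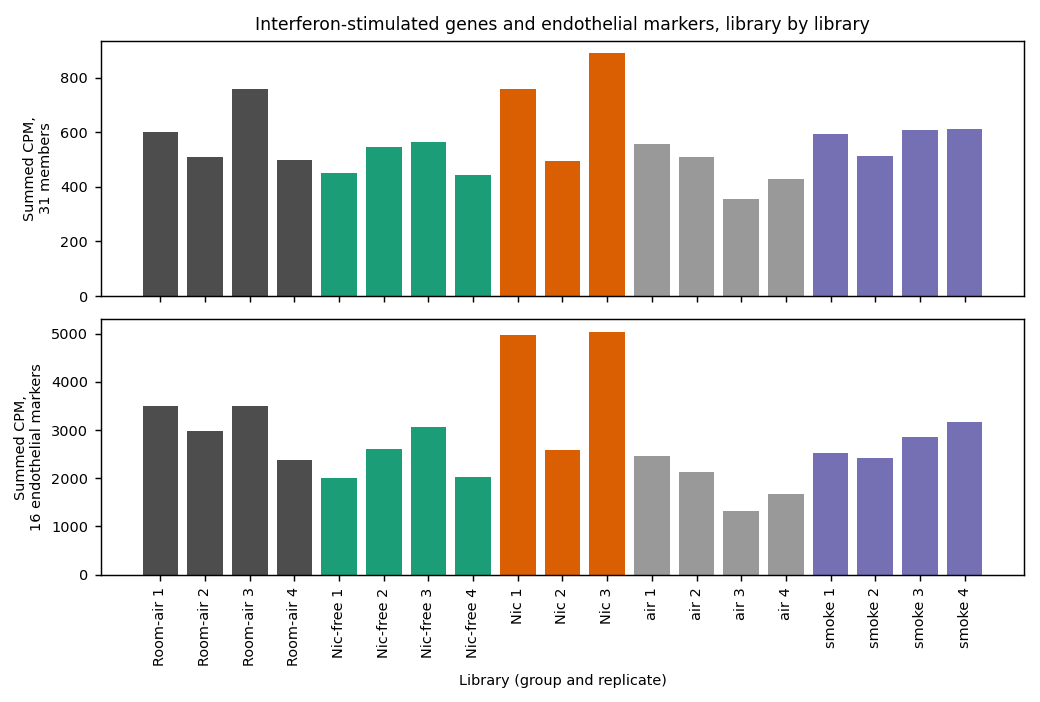
Summed CPM per library of the 31 members (top) and of 16 endothelial markers (bottom), 1 bar per library, coloured by group. Nic 1 and Nic 3 stand highest in both panels, and air 3 stands lowest in both, at 353.8 CPM for the members.

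Among the transcription factors, Irf9 (ENSMUSG00000002325, chr14:55603571-55610030, plus strand), the DNA-binding part of the complex with Stat2, gave the clearest pattern. Its CPM was 42.3, 46.9, 43.02 and 46.9 in Room-air, 35.98, 35.00, 31.2 and 25.1 in Nic-free and 63.6, 46.03 and 69.2 in Nic. In air it was 35.3, 37.6, 25.1 and 32.2 and in smoke 48.6, 45.9, 53.5 and 38.5. Every Nic-free library lay below every Room-air library and below every Nic library, and every smoke library lay above every air library. Irf9 was lower in Nic-free than in Room-air, at −0.44 ± 0.13 (log2 fold change ± SE, as for all such values below; adjusted p = 0.0309, edgeR) and higher in Nic than in Nic-free by 0.83 ± 0.14 (adjusted p = 0.00127, edgeR). It was also lower in air than in Room-air, at −0.43 ± 0.14 (adjusted p = 0.0356, edgeR). Irf9 overlaps Rnf31 on the same strand over 123 bases.

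Stat2 (ENSMUSG00000040033, chr10:128270559-128292849, plus strand), the partner of Irf9, varied least of all members. It stood at 62.02, 74.2, 79.9 and 75.1 CPM in Room-air, 65.8, 75.2, 71.1 and 66.5 in Nic-free and 89.04, 79.4 and 89.9 in Nic. In air it stood at 84.4, 85.4, 67.5 and 86.9 and in smoke at 88.6, 75.2, 88.1 and 88.6. All 3 Nic libraries lay above all Nic-free libraries, yet the difference of 0.23 ± 0.10 on the log2 scale did not pass (adjusted p = 0.102, edgeR). Irf1, which is induced by interferon gamma and activates the guanylate-binding proteins, ranged from 15.6 to 38.9 CPM over the 19 libraries, and Irf7, which drives interferon-alpha genes, from 7.56 to 21.2. Neither passed in any comparison; the largest difference of Irf1 was 0.60 ± 0.16 in smoke against air (adjusted p = 0.0745, edgeR). Irf7 overlaps Phrf1 on the opposite strand over 45 bases, and Irf1 overlaps Gm17334.

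Nucleic acid sensors came next. Ifih1 (ENSMUSG00000026896, chr2:62595798-62646255, minus strand) encodes MDA5, which detects long double-stranded RNA. Its CPM was 17.6, 11.5, 20.5 and 12.00 in Room-air, 9.80, 9.93, 10.3 and 10 in Nic-free and 20.8, 14.1 and 24.1 in Nic. It was 12.6, 8.09, 9.56 and 7.73 in air and 12.03, 10.7, 19.3 and 13.7 in smoke. The Nic-free libraries were nearly equal and lay below every Room-air and every Nic library, and air overlapped smoke and Room-air. Ifih1 was lower in Nic-free than in Room-air, at −0.57 ± 0.19 (adjusted p = 0.0496, edgeR), higher in Nic than in Nic-free by 0.90 ± 0.20 (adjusted p = 0.00638, edgeR) and lower in air than in Room-air, at −0.65 ± 0.21 (adjusted p = 0.0305, edgeR).

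Ddx58 (ENSMUSG00000040296, chr4:40203773-40239828, minus strand) encodes RIG-I, which detects RNA with a triphosphate end. It held 24.02, 16.1, 28.3 and 17.4 CPM in Room-air, 15.8, 16.3, 19.8 and 16.1 in Nic-free and 28.1, 17.1 and 30.8 in Nic. In air it held 18.3, 13.3, 10.97 and 13.4 and in smoke 18.8, 16.1, 22.9 and 18.2. Room-air split into a high pair and a low pair, Nic 2 lay apart below the other Nic libraries, and air 1 overlapped the lower Room-air libraries. Ddx58 was lower in air than in Room-air, at −0.58 ± 0.19 (adjusted p = 0.0375, edgeR), and its difference of 0.50 ± 0.21 in Nic against Nic-free did not pass (adjusted p = 0.0986, edgeR). Dhx58, which encodes the regulator LGP2, ranged from 4.8 to 8.88 CPM and passed nowhere; it overlaps the antisense gene Dhx58os over 2637 bases.

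Isg15 is a ubiquitin-like protein that is attached to other proteins, and Usp18 (ENSMUSG00000030107, chr6:121245906-121270917, plus strand) removes it and also blocks the type I receptor. Usp18 stood at 7.32, 6.805, 8.23 and 5.44 CPM in Room-air, 4.999, 4.97, 4.91 and 4.21 in Nic-free and 11.1, 5.70 and 11.4 in Nic. In air it stood at 4.93, 5.94, 3.34 and 4.34 and in smoke at 6.30, 5.04, 5.98 and 6.90. All Nic-free libraries lay below all Room-air and all Nic libraries, and Nic 2 was close to the lower Room-air values. Usp18 was higher in Nic than in Nic-free by 0.90 ± 0.21 (adjusted p = 0.00718, edgeR), and its difference of −0.49 ± 0.20 in Nic-free against Room-air did not pass (adjusted p = 0.0945, edgeR).

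Trim25 (ENSMUSG00000000275, chr11:88999376-89020293, plus strand) encodes a ubiquitin ligase that activates RIG-I and can attach Isg15. Its CPM was 30.8, 25.98, 32.8 and 19.6 in Room-air, 17.6, 24.8, 25.5 and 16.4 in Nic-free and 38.6, 18.6 and 37.5 in Nic. It was 19.4, 17.9, 14.7 and 14.2 in air and 19.7, 20.1, 26.5 and 24.99 in smoke. Every air library lay below every Room-air library and below every smoke library, and Nic 2 lay far below the other Nic libraries. Trim25 was lower in air than in Room-air, at −0.68 ± 0.21 (adjusted p = 0.0281, edgeR), and higher values in smoke than in air, by 0.49 ± 0.13, did not pass (adjusted p = 0.0807, edgeR). Isg15 itself ranged from 5.49 CPM in air 3 to 19.8 in Nic 3 and passed in no comparison; its difference in Nic against Nic-free was 0.37 ± 0.30.

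Ifit1 (ENSMUSG00000034459, chr19:34640871-34650009, plus strand) binds viral RNA that lacks the cap methylation of the host. It stood at 13.8, 10.2, 18.1 and 12.3 CPM in Room-air, 15.3, 14.2, 12.4 and 10.8 in Nic-free and 26.2, 16.02 and 21.8 in Nic. In air it stood at 13.8, 9.53, 7.41 and 7.54 and in smoke at 11.1, 11.5, 12.5 and 14.6. The Nic libraries all lay above the Nic-free libraries, and 1 of them lay within the Room-air range. Ifit1 was higher in Nic than in Nic-free by 0.62 ± 0.19 (adjusted p = 0.0312, edgeR). A difference of 0.63 ± 0.19 in Nic against Room-air did not pass (adjusted p = 0.0728, edgeR). Ifit2, Ifit3 and Ifit3b, related RNA-binding proteins, passed nowhere. The share of reads given to Ifit3 or to its near-identical copy Ifit3b is uncertain, and Ifit3b differed most in smoke against air, where 7.51 ± 1.13 CPM stood against 4.12 ± 1.24 (SD, n = 4 each), with no overlap.

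Oas1a (ENSMUSG00000052776, chr5:120896256-120907521, minus strand) makes the 2-5A messenger that switches on RNase L. It held 3.21, 3.22, 4.55 and 2.96 CPM in Room-air, 2.43, 3.25, 3.50 and 2.50 in Nic-free and 6.24, 3.52 and 6.45 in Nic. In air it held 3.16, 1.54, 0.889 and 1.51 and in smoke 3.72, 2.39, 3.11 and 3.09. Nic lay above all Nic-free libraries by a small margin in Nic 2 and a wide one in the other libraries, and air lay below Room-air but for air 1. Oas1a was higher in Nic than in Nic-free by 0.80 ± 0.23 (adjusted p = 0.0203, edgeR) and lower in air than in Room-air, at −0.93 ± 0.28 (adjusted p = 0.0233, edgeR). Its highest library held 7.25 times the CPM of its lowest, the widest span among the members. Oasl2, of the same family, ranged from 8.08 to 26.4 CPM and passed nowhere.

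**Figure D4:**
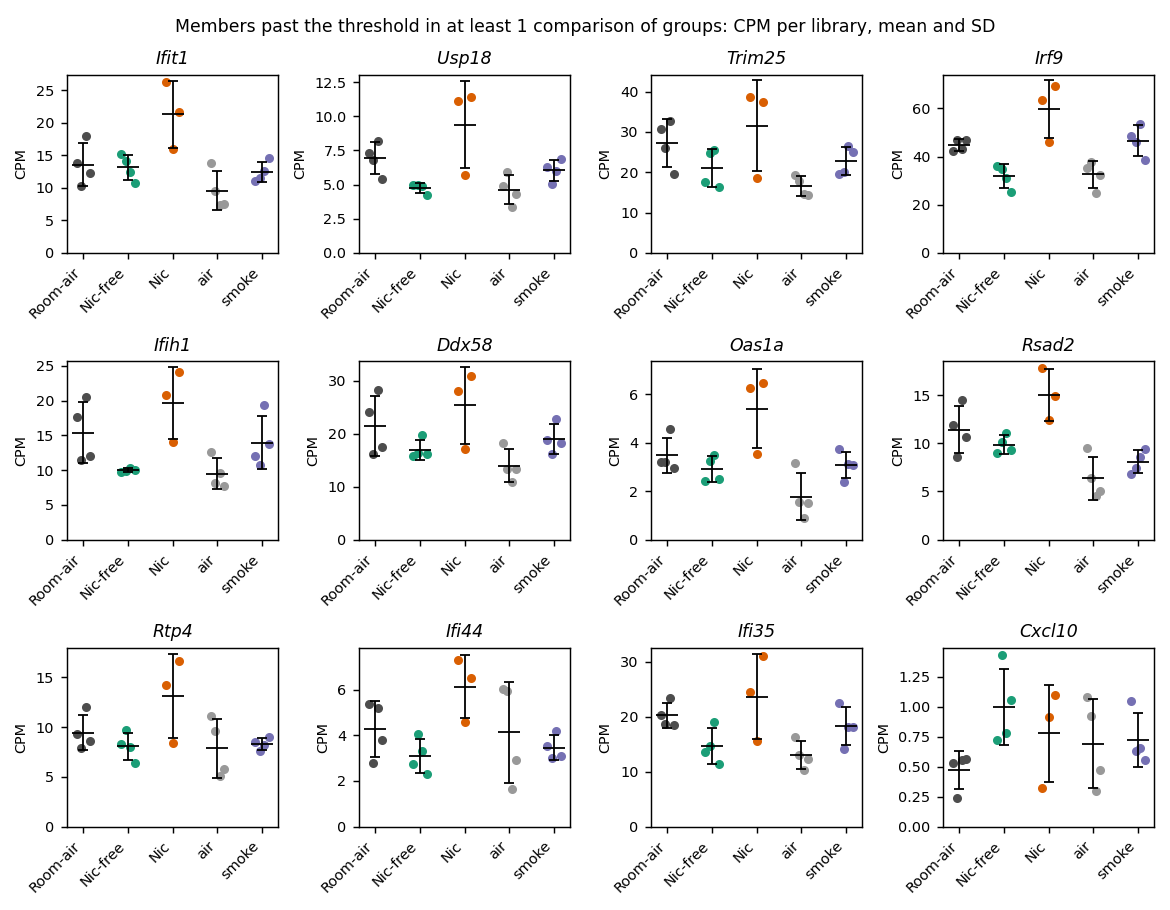
CPM per library (points) with the group mean and SD (bars) for the 12 members that passed in at least 1 comparison of groups, with axes from 0. In the Nic group 1 library, Nic 2, lies at or near the level of the control groups for most genes, as for Usp18 at 5.70 CPM against 11.1 and 11.4. For Cxcl10 the low library of the group is Nic 1.

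Rsad2 (ENSMUSG00000020641, chr12:26442746-26456452, minus strand) encodes viperin, which makes a nucleotide that stops viral polymerases. Its CPM was 11.9, 8.62, 14.4 and 10.7 in Room-air, 8.95, 10.2, 11.1 and 9.28 in Nic-free and 17.8, 12.4 and 14.9 in Nic. It was 9.48, 6.35, 4.52 and 5.09 in air and 6.78, 7.43, 8.61 and 9.44 in smoke. The Nic libraries lay above all Nic-free libraries, and air overlapped Room-air only through air 1. Rsad2 was higher in Nic than in Nic-free by 0.53 ± 0.16 (adjusted p = 0.0278, edgeR) and lower in air than in Room-air, at −0.80 ± 0.19 (adjusted p = 0.00585, edgeR).

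Rtp4 (ENSMUSG00000033355, chr16:23520291-23614222, plus strand), a transporter protein of G protein-coupled receptors, held 9.28, 7.95, 11.99 and 8.63 CPM in Room-air, 8.29, 9.71, 7.995 and 6.38 in Nic-free and 14.3, 8.45 and 16.6 in Nic. In air it held 11.1, 9.63, 5.04 and 5.75 and in smoke 8.50, 7.56, 8.20 and 8.96. Nic 2 lay within the Nic-free range, so these groups overlapped. Rtp4 was higher in Nic than in Nic-free by 0.62 ± 0.21 (adjusted p = 0.0479, edgeR), and it overlaps Masp1 on the opposite strand over 525 bases.

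Ifitm3 (ENSMUSG00000025492, chr7:141009586-141010770, minus strand), a membrane protein that blocks virus entry, had the highest level per kilobase. It stood at 71.7, 55.8, 96.97 and 55.2 CPM in Room-air, 49.5, 70.2, 87.3 and 55.5 in Nic-free and 73.3, 41.5 and 121 in Nic. In air it stood at 67.2, 83.1, 47.4 and 51.9 and in smoke at 68.1, 67.4, 65.4 and 76.5. The Nic group held both the highest and the lowest library of all 19, and no comparison passed. Bst2, or tetherin, which holds budding virus at the cell surface, ranged from 15.8 to 38.4 CPM. All Nic-free and all air libraries of Bst2 lay below all Room-air libraries, with differences of −0.46 ± 0.22 (adjusted p = 0.16, edgeR) and −0.58 ± 0.24 (adjusted p = 0.0913, edgeR) that did not pass.

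None of the 5 GTPases passed in any comparison. Gbp3 (ENSMUSG00000028268, chr3:142560026-142573209, plus strand), a guanylate-binding protein that attacks the vacuoles of intracellular pathogens, stood at 30.4, 21.9, 36.5 and 21.1 CPM in Room-air, 22.03, 28.2, 27.9 and 23.4 in Nic-free and 43.6, 24.1 and 45.3 in Nic. In air it stood at 30.8, 25.2, 14.7 and 17.8 and in smoke at 33.9, 32.6, 35.9 and 40.7. All smoke libraries lay above all air libraries, with a difference of 0.72 ± 0.19 (adjusted p = 0.0802, edgeR). Gbp2, of the same family, spread widely within groups, from 16.3 to 50.03 CPM in Room-air and from 16.5 to 53.02 in Nic. Its difference of 1.09 ± 0.48 in Nic against Nic-free had a large error and did not pass (adjusted p = 0.128, edgeR). Gbp7 ranged from 13.5 to 42.02 CPM and Iigp1, an immunity-related GTPase, from 4.16 in smoke 2 to 20.8 in Room-air 3.

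Of the other induced genes, Ifi44 (ENSMUSG00000028037, chr3:151730922-151749960, minus strand) held 5.37, 2.78, 5.18 and 3.79 CPM in Room-air, 2.76, 4.05, 3.29 and 2.30 in Nic-free and 7.29, 4.59 and 6.49 in Nic. In air it held 6.01, 5.94, 1.63 and 2.92 and in smoke 3.53, 3.02, 4.18 and 3.09. All Nic libraries lay above all Nic-free libraries, and air split into a high pair and a low pair. Ifi44 was higher in Nic than in Nic-free by 0.90 ± 0.25 (adjusted p = 0.0168, edgeR).

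Ifi35 (ENSMUSG00000010358, chr11:101448407-101458698, plus strand), a partner of Nmi, held 20.3, 18.7, 23.4 and 18.5 CPM in Room-air, 13.6, 14.7, 19.1 and 11.4 in Nic-free and 24.4, 15.6 and 30.9 in Nic. In air it held 16.3, 13.01, 10.2 and 12.3 and in smoke 22.5, 14.1, 18.1 and 18.1. All air libraries lay below all Room-air libraries, and Nic 2 lay inside the Nic-free range. Ifi35 was higher in Nic than in Nic-free by 0.61 ± 0.21 (adjusted p = 0.0446, edgeR) and lower in air than in Room-air, at −0.60 ± 0.19 (adjusted p = 0.0294, edgeR). It overlaps the antisense gene Gm11626 over 815 bases. Parp14, an ADP-ribosyltransferase, ranged from 9.34 to 37.1 CPM, Xaf1, a partner of the apoptosis inhibitor XIAP, from 10.2 to 20.9, and Ifi27l2a from 0.918 to 3.07; none of them passed.

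Cxcl10 (ENSMUSG00000034855, chr5:92346638-92348889, minus strand), the chemokine that draws T cells bearing Cxcr3, was the member called higher in nicotine-free vapour than in Room-air. Its CPM was 0.530, 0.235, 0.554 and 0.563 in Room-air, 0.724, 1.43, 0.784 and 1.05 in Nic-free and 0.321, 0.918 and 1.09 in Nic. It was 1.08, 0.922, 0.296 and 0.471 in air and 1.05, 0.630, 0.656 and 0.555 in smoke. Every Nic-free library lay above every Room-air library, and Nic, air and smoke each overlapped both. Cxcl10 was higher in Nic-free than in Room-air by 1.14 ± 0.39 (adjusted p = 0.0496, edgeR). The gene lies wholly inside Art3 on the opposite strand, with 244 reads over 19 libraries against 5408 for Art3, and whether HTSeq used the strand is not given in the sources used here, so its counts are uncertain.

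**Figure D5:**
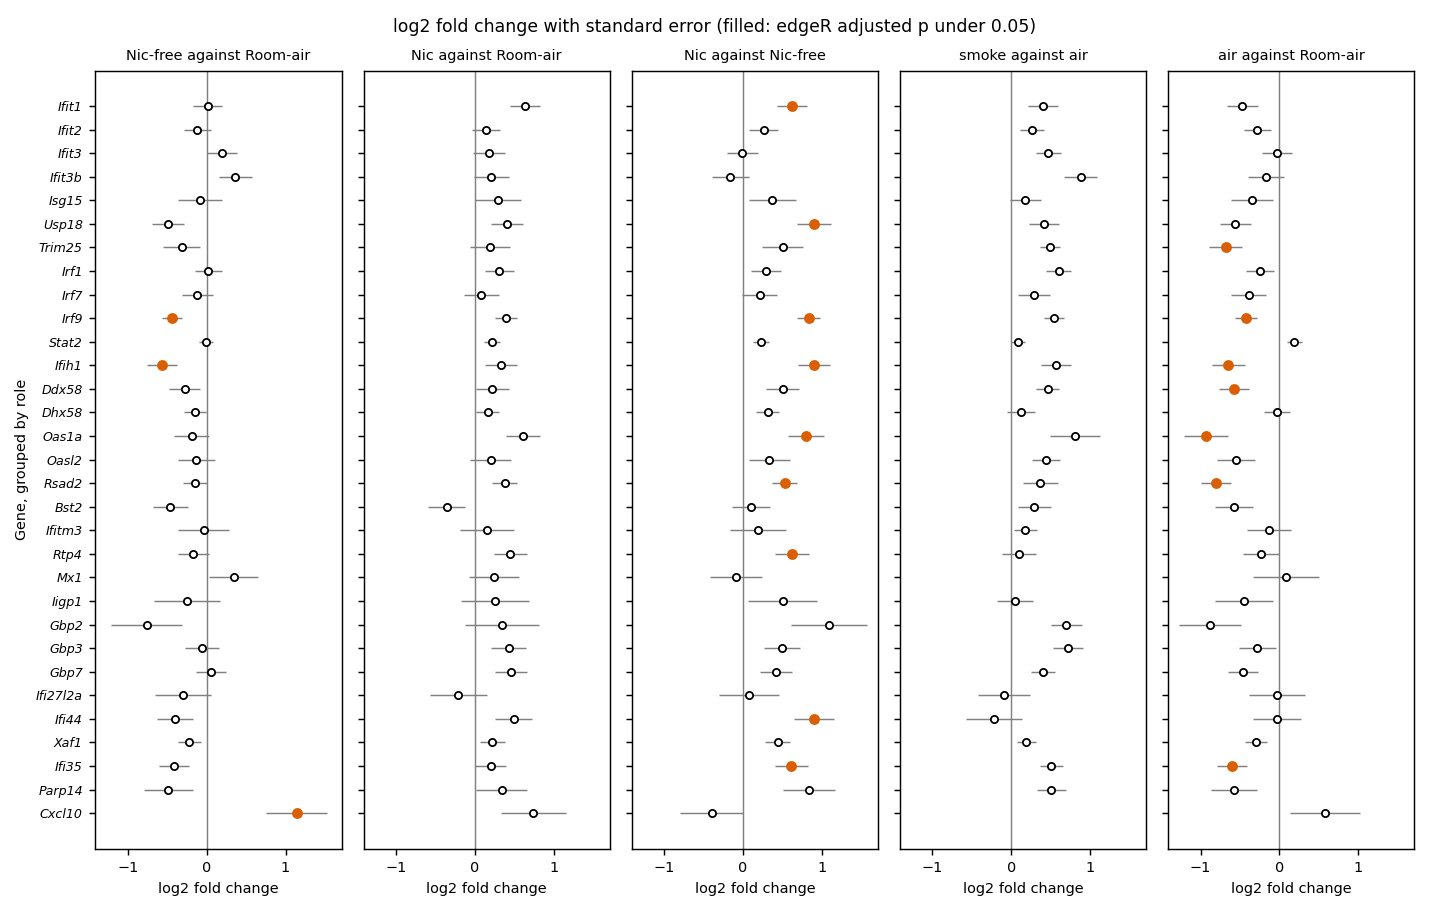
Log2 fold change (points) with its standard error (lines) for each member in the 5 comparisons of groups, with filled points at an adjusted p under 0.05. In Nic against Nic-free 27 of 31 points lie right of 0, and in air against Room-air 28 of 31 lie left of it.

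In nicotine against nicotine-free vapour, the members that rose were spread over several roles: Irf9, Ifih1, Usp18, Ifi44, Oas1a, Rsad2, Ifit1, Ifi35 and Rtp4. The median log2 fold change of the 31 was 0.44, beside 0.02 for all genes tested, and 27 were above 0. In 9 members all Nic libraries lay above all Nic-free libraries, where 20.7% of all genes tested lay so and 33.9% did not overlap in either direction. Past the threshold, 12.4% of all genes tested were higher and 24.8% differed in either direction. Of 83 other interferon pathway genes tested, 21 were higher and 1, Oas1c, lower (named after its value was seen). Those with the smallest p were Jak2, the kinase of the gamma receptor, at 0.66 ± 0.10 (adjusted p = 0.000571, edgeR), the helicase Helz2 at 0.93 ± 0.16 (adjusted p = 0.00145, edgeR), Slfn5 at 1.75 ± 0.29 (adjusted p = 0.002, edgeR) and Cmpk2 at 0.54 ± 0.12 (adjusted p = 0.00593, edgeR). Vessel markers were higher too: 8 of 16 endothelial markers passed, with sums of 2592 to 5043 CPM in Nic against 2013 to 3073 in Nic-free, and 5 of 8 pericyte markers passed, with sums of 1300 to 2301 against 959.7 to 1354. Markers of several other cells were lower: 6 of 10 for neurons, 7 of 9 for astrocytes, 6 of 8 for oligodendrocytes and 3 of 11 for microglia. Perivascular macrophage markers were above 0 in 6 of 6, with 1 past the threshold. Their sums were 36.7 to 72.42 CPM in Nic against 24.73 to 34.59 in Nic-free. Fibroblast markers were above 0 in 5 of 6 with 1 past the threshold, and smooth muscle markers in 4 of 5 with 0. Ribosomal protein genes were lower in 10 of 10, with sums of 1272 to 2027 CPM in Nic against 2415 to 2834 in Nic-free. No endothelial or pericyte marker was at 0 throughout, and the part of all these lists, and of a depth that was higher in every Nic library, in the result was not tested. Members past the threshold numbered 16 without Nic 2 but 3 without Nic 1, 4 without Nic-free 4, and 5 without Nic-free 1 or Nic 3. Of all genes, 20.4% passed without Nic 2, 13.7% without Nic 1, 19.6% without Nic-free 4, 21.8% without Nic-free 1 and 27% without Nic 3. Irf9, Ifih1 and Usp18 passed in all 17 alternatives run, Ifi44 in 16, Oas1a in 13, Ifit1 and Rsad2 in 12, Ifi35 in 6 and Rtp4 in 5.

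Nicotine-free vapour against Room-air shared its fit with the comparison above. Irf9 and Ifih1 were lower and Cxcl10 higher. The 31 members had a median of −0.15, beside 0.00 for all genes, with 24 below 0. With the air set as control the median of the members turned to 0.19 and 0 passed. In 4 members Nic-free lay wholly below Room-air and in 1 wholly above, where 15.6% of all genes lay below, 11.2% above and 26.8% did not overlap. Past the threshold, 10.4% of all genes tested were lower, 11.3% higher and 21.8% either. Among 83 pathway genes 11 were lower and 1, Pias4, higher (named after its value was seen), led by Helz2 at −0.90 ± 0.15 (adjusted p = 0.00174, edgeR), Slfn5 at −1.36 ± 0.28 (adjusted p = 0.00692, edgeR), the ubiquitin ligase Trim21 at −0.85 ± 0.22 (adjusted p = 0.0144, edgeR) and Tor3a at −0.42 ± 0.12 (adjusted p = 0.0197, edgeR). Endothelial markers were lower in 4 of 16, with sums of 2013 to 3073 CPM in Nic-free against 2381 to 3497 in Room-air. Perivascular macrophage markers were below 0 in 6 of 6 with 1 past the threshold. Choroid plexus and ependyma markers were below 0 in 10 of 10 with 2 past it. Neuron markers were higher in 7 of 10, with sums of 6459 to 7590 against 4258 to 5055, astrocyte markers in 6 of 9, oligodendrocyte markers in 5 of 8 and microglia markers in 6 of 11. Ribosomal protein genes were higher in 6 of 10, with sums of 2415 to 2834 CPM against 1863 to 2052. Every Nic-free library was also shallower than every Room-air library and had a larger share of reads in no gene. The part of these in the result was not tested. The count of members was 5 without Nic 2, 1 without Room-air 1, Room-air 2, Room-air 4 or Nic-free 2, and 0 without Room-air 3, Nic-free 3 or Nic-free 4, while 12.7 to 23.9% of all genes passed in these fits. Irf9 passed in 12 of 18 alternatives run, and Ifih1 and Cxcl10 in 7 each. Beside libraries left out, the call of Ifih1 ended with RLE size factors, without the filter on low counts, with all 19 libraries fitted and with the air set as control. That of Cxcl10 ended with RLE size factors, DESeq2, a replicate block and the air set, and that of Irf9 with the air set.

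In nicotine vapour against Room-air, no member passed by edgeR, 7 had an unadjusted p under 0.05, where 24.4% of all genes did, and DESeq2 called 1, Ifit1, where it called 10.8% of the genes to which it gave an adjusted p. The median was 0.25, beside 0.03 for all genes, and 29 of 31 were above 0. Nic and Room-air overlapped in all 31 members, where 17% of all genes did not overlap. Of 83 pathway genes, Jak2 alone passed, at 0.42 ± 0.10 (adjusted p = 0.0336, edgeR), where 3.89% of all genes did. The count was 5 without Nic 2 (Ifit1, Usp18, Irf1, Irf9 and Oas1a), and 1 without Room-air 3 (Ifit1) or without Nic 3 (Bst2, lower), where 2.44, 2.1 and 17.1% of all genes passed. Of the 16 endothelial markers, none passed and all were above 0. Choroid plexus and ependyma markers summed to 2086 to 7066 CPM in Nic against 17480 to 24760 in Room-air, with no overlap and a median log2 fold change of −1.82, though 0 of 10 passed. Ribosomal protein genes were below 0 in 10 of 10 and 0 passed. The part of these lists in the member values was not tested. This comparison, nicotine-free against Room-air and air against Room-air use the same 4 Room-air libraries.

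In smoke against air, no member passed by edgeR among the 29 tested, as Mx1 and Cxcl10 fell under the filter on low counts. An unadjusted p under 0.05 was found in 15, where 19.3% of all genes had one. DESeq2 called 6, namely Ifit3b, Trim25, Irf1, Irf9, Gbp2 and Gbp3, where it called 6.86% of the genes to which it gave an adjusted p. The median log2 fold change was 0.40, beside 0.02 for all genes, and 27 of 29 were above 0. With the Room-air set as control the median turned to −0.10 and 0 passed. Smoke lay wholly above air in 4 members, Ifit3b, Irf9, Gbp3 and Trim25, where 5.48% of all genes lay above and 11.3% did not overlap. Ifit3b differed by 0.88 ± 0.21 (adjusted p = 0.0611, edgeR) and Irf9 by 0.54 ± 0.13 (adjusted p = 0.062, edgeR). Of 77 pathway genes 0 passed by edgeR, 23 had an unadjusted p under 0.05 and DESeq2 called 6. Without air 1, 5 members passed: Ifit3b, Irf1, Gbp2, Gbp3 and Parp14, where 1.26% of all genes did. Endothelial markers summed to 2416 to 3165 CPM in smoke against 1321 to 2464 in air, all 16 above 0 and 1 past the threshold. Neuron markers summed to 3602 to 5258 CPM against 5548 to 7190 and microglia markers to 797.8 to 1072 against 696.4 to 732.9, neither with overlap and with 1 marker past the threshold in each list. Pericyte markers were above 0 in 8 of 8, fibroblast and perivascular macrophage markers in 6 of 6 each and smooth muscle markers in 5 of 5. Astrocyte markers were above 0 in 7 of 9, and oligodendrocyte markers were below 0 in 8 of 8. In these lists 0 passed. The part of these in the result was not tested.

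Between the unexposed sets, Rsad2, Oas1a, Trim25, Ifi35, Ifih1, Irf9 and Ddx58 were lower in air than in Room-air. The median of the members was −0.39, beside 0.00 for all genes, and 28 of 31 were below 0. In 4 members the air libraries lay wholly below the Room-air libraries, where 16.5% of all genes lay below and 26.4% did not overlap. Of all genes tested, 12% passed as lower and 22.7% in either direction. Of 82 pathway genes 19 were lower and 0 higher, led by Slfn5 at −2.0 ± 0.28 (adjusted p = 0.000221, edgeR), the receptor Ifngr1 at −0.51 ± 0.11 (adjusted p = 0.00233, edgeR), Helz2 at −0.98 ± 0.20 (adjusted p = 0.00241, edgeR) and Samhd1, which removes nucleotides that viruses need, at −0.60 ± 0.13 (adjusted p = 0.00336, edgeR). Endothelial markers were lower in 10 of 16, with sums of 1321 to 2464 CPM against 2381 to 3497. So were pericyte markers in 5 of 8, fibroblast markers in 5 of 6 and perivascular macrophage markers in 2 of 6. Oligodendrocyte markers were higher in 4 of 8, with sums of 22870 to 31890 CPM against 12760 to 15400, neuron markers in 4 of 10 and ribosomal protein genes in 9 of 10. Depth and set differ between these groups, so treatment set, depth and cell content cannot be told apart here. The count was 3 without Room-air 1 or air 2, 2 without air 4, 2 without air 3 (Rsad2 lower and Stat2 higher) and 1 without Room-air 3, while 14.5 to 20.3% of all genes passed in these fits. Rsad2 passed in all 24 alternatives run and the other 6 members in 18 to 20. Those 24 include fits that left out a Nic-free, Nic or smoke library, none of which is in this comparison. Without Room-air 3, air 3 or air 4, each left out in turn, all of the other 6 lost their calls.

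Whether smoke and vapour effects differ was tested directly, each relative to its own air set. Both unexposed sets enter such a difference, so an offset between them is part of it. For smoke minus nicotine-free vapour, 4 members differed, all higher, where 11.2% of all genes passed as higher and 21.5% in either direction. Ifih1 differed by 1.14 ± 0.30 (adjusted p = 0.011, edgeR), Irf9 by 0.98 ± 0.20 (adjusted p = 0.00232, edgeR), Ifi35 by 0.92 ± 0.27 (adjusted p = 0.022, edgeR) and Usp18 by 0.91 ± 0.29 (adjusted p = 0.0306, edgeR). The median of the members was 0.42, beside 0.01 for all genes. In air against Room-air the member median was −0.39, and Irf9, Ifih1 and Ifi35 passed there as lower. Usp18 stood at −0.56 there and did not pass (adjusted p = 0.0539, edgeR). The part of this offset between the unexposed sets was not tested. Of 82 pathway genes 16 differed, all higher, led by Slfn5 at 2.16 ± 0.39 (adjusted p = 0.00139, edgeR), Helz2 at 1.38 ± 0.28 (adjusted p = 0.00262, edgeR), Irf3 at 0.70 ± 0.16 (adjusted p = 0.00588, edgeR) and the adaptor Mavs at 0.94 ± 0.22 (adjusted p = 0.00649, edgeR). Of the markers, 10 of 16 endothelial and 4 of 8 pericyte genes differed, all higher, as did 7 of 10 neuronal and 6 of 8 oligodendrocyte genes, all lower, and their part was not tested. The count was 11 without air 1, 9 without Nic 2, 8 without Room-air 4 and 2 without Nic-free 4, while 15.5 to 22.4% of all genes passed in these fits.

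For smoke minus nicotine vapour, no member differed by edgeR, where 5.59% of all genes did, or by DESeq2, where 12.3% of the genes with an adjusted p did. An unadjusted p under 0.05 was found in 1, Ifit3b, and in 25.3% of all genes. The median of the members was 0.14, beside 0.02 for all genes, and it was −0.07 without Room-air 3, −0.06 without Nic 2 and −0.03 without air 3. The difference of Irf9 was 0.16 ± 0.21 and that of Ifih1 0.25 ± 0.30, values smaller than, or close to, their errors. Of 82 pathway genes Mavs alone passed, at 0.86 ± 0.23 (adjusted p = 0.0374, edgeR). Without Nic 3, Bst2 passed as the only 1 of the 31, where 14.8% of all genes did.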

How the data were processed

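Per the labels, polyadenylated RNA of cerebral microvessels was sequenced single-end. The authors deposited raw counts per Ensembl gene and library; per the submitters' processing notes STAR, HTSeq and mm10 were used, with versions, options and strand setting not given in the sources used here. Each table lists 39179 genes and 5 summary lines, which were left out of totals and tests (the no-feature line held 28.66 to 45.16% of the sum of all lines). Names and positions are from GENCODE M21, promoter sequences from RefSeq (GRCm38.p6).

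Counts were fitted with edgeR 4.0.16 in R 4.3.3 (TMM, filterByExpr, robust glmQLFit, glmQLFTest, Benjamini-Hochberg over all genes tested, threshold 0.05): Room-air, Nic-free and Nic together, air and smoke together, and all 19 libraries for comparisons across them. The SE of an edgeR log2 fold change was derived from its test, as the absolute log2 fold change divided by the square root of the F statistic. The scripts were tested on simulated data. Alternatives were RLE size factors, no filter, DESeq2 1.42.0, other sets of libraries or controls, a replicate block and each library left out. Each library of a fit was left out in turn, also where its group was outside the comparison. No label ties a library to a separate mouse, so a p-value here reflects spread among samples that may be technical.

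The members and lists were chosen with earlier results of these data known. All 31 members are named; values per library are given for members past the threshold in a direct comparison and for the 3 highest others (Stat2, Ifitm3, Gbp3), and at most 4 pathway genes with the smallest p per comparison. Of 101 pathway symbols 99 matched.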

Additional observations from a re-analysis of the deposited data

Results flagged for a closer look

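In groups of 4, a library was set apart where its gap to the nearest other exceeded the 95% critical value of Dixon's test. Of 124 sets of a member and a group, 7 were so, and this test marks about 1 set in 20 by itself. Usp18 was 4.21 CPM in Nic-free 4, with the others at 4.91 to 5.0. Stat2 was 67.5 in air 3 (others 84.4 to 86.9) and 75.2 in smoke 2 (others 88.1 to 88.6). Ddx58 was 19.8 in Nic-free 3 (others 15.8 to 16.3), and Dhx58 was 4.8 in Nic-free 1 (others 5.94 to 6.17). Iigp1 was 4.16 in smoke 2 (others 8.31 to 8.41), and Cxcl10 was 0.235 in Room-air 2 (others 0.53 to 0.563).

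The smoke effect and the nicotine-free effect, each against its own air set, differed by edgeR in 4 members. Of all genes tested, 11.2% passed as higher in this contrast and 21.5% in either direction. The log2 differences of these members were 0.98 for Irf9, 1.14 for Ifih1, 0.92 for Ifi35 and 0.91 for Usp18.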

How the results depend on the processing

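The count of members past the threshold depended on the processing in most comparisons. For Nic-free against Room-air it was 3, and 1 with RLE size factors, 6 with only these groups fitted and 0 with the air set as control. Of all genes, 21.8, 21.6, 25.3 and 4.22% passed in these fits, in that order. With the air set, Ifih1 turned to 0.07 and the median of the members from −0.15 to 0.19. For Nic against Room-air it was 0, and 1 with DESeq2 and 17 with the air set as control. Of all genes, 3.89% passed in the main fit and 30% with the air set. DESeq2 called 10.8% of the genes to which it gave an adjusted p. For smoke against air it was 0, and 3 without the filter, 6 with DESeq2 and 2 with all 19 libraries. Of all genes, 1.6% passed in the main fit, 1.89% without the filter and 3.13% with all 19 libraries. Here DESeq2 called 6.86% of the genes to which it gave an adjusted p. With Room-air as control the member count was 0, where 6.2% of all genes passed. The median of the members then turned from 0.40 to −0.10. For smoke minus Nic-free it was 4, and 8 with DESeq2, where 21.5 and 24% of all genes fitted passed. Leaving out 1 library gave 0 to 5, 0 to 5, 3 to 16, 0 to 5 and 1 to 9 in the 5 direct comparisons (Nic-free and Nic against Room-air, Nic against Nic-free, smoke against air, air against Room-air), 0 to 1 for smoke minus Nic and 2 to 11 for smoke minus Nic-free. In that order, the shares of all genes were 12.7 to 25.2, 0 to 17.1, 13.7 to 27, 0.00645 to 1.26 and 14.5 to 25.4%. They were 0.0776 to 14.8% for smoke minus Nic and 15.5 to 24.6% for smoke minus Nic-free. The cause was not tested. The ISRE count was 15, and 13 with the longer form.

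Over all genes, Nic against Room-air gave 670 calls, 1645 with DESeq2, 348 with all 19 libraries, 4961 with the air set as control and 0 to 2956 with 1 library left out. Smoke against air gave 244, 924 with DESeq2, 466 without the filter, 519 with all libraries, 1027 with Room-air as control and 1 to 192 with 1 library left out. Nic-free against Room-air gave 3753, and 699 with the air set. Smoke minus Nic gave 925, 1754 with DESeq2 and 13 to 2476 with 1 library left out.

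Libraries with the same replicate number were not more alike: of 36 such pairs 8 had r over 0.1 (range −0.399 to 0.444). Their median r was −0.008, against 0.007 for other numbers, and 6 of 19 libraries correlated best with their own number. These pairs span all groups, so the check cannot exclude that samples were paired within a set. With a replicate block the members past the threshold numbered 3, 0, 9, 0, 7, 0 and 5 in the order above, and all genes in smoke against air 5. The shares of all genes were 19, 2.74, 19.8, 0.0328, 21.1, 4.69 and 19.5%, in the same order. Cxcl10 lost its call in Nic-free against Room-air, where Ifi35 gained one. Rtp4 lost its call in Nic against Nic-free, where Parp14 gained one. In smoke minus Nic-free, Ddx58 was newly called. Depth limits Cxcl10 and Mx1, at most 31 and 38 reads per library.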
